A study of Homo sapiens with 9 samples.

Results

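The 34 genes described here encode enzymes and regulators of cholesterol and fatty acid synthesis. They were found by gene symbol, and all 34 are among the 25540 symbols of the table and among the 10939 genes that were tested (mean of at least 1 TPM over all libraries, where TPM is the read count per unit of transcript length, scaled to the same sum in each library). The list was chosen by pathway with the values of these 9 libraries already known. The difference between the libraries of replicate 3 and the others is taken as the readout that chose it, so for the 34 genes that difference is given as a description, with no p-value, and the number of them called is given once, only beside the share of all genes. Comparisons of KHSRP knockdown with control were tested across all genes.

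The study used CAL-1 cells, an established human line from the leukemia BPDCN (blastic plasmacytoid dendritic cell neoplasm), whose cells resemble plasmacytoid dendritic cells. RNA was sequenced from 9 libraries, 3 in each of 3 groups. The control group, NTC, has the genotype label WT, and the groups KHSRPi#1 and KHSRPi#2 have the label KHSRP knockdown, obtained by CRISPR interference, in which a catalytically dead Cas9 represses a gene at its promoter without cutting it. KHSRP is an RNA-binding protein that promotes the decay of some messenger RNAs. What the numbers #1 and #2 stand for, the repressor construct and the time after its delivery are not stated in the labels. All groups come from the same cell line and carry the same batch label. Nothing in the labels says that the replicates are separate cultures, so p-values measure only how much these libraries vary, which may be technical variation.

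Cells make cholesterol from acetyl-CoA through mevalonate, isoprenoids, squalene and lanosterol, and make fatty acids from the same acetyl-CoA through malonyl-CoA. Both pathways are controlled by the SREBP transcription factors, the products of SREBF1 and SREBF2. When sterols are scarce in the endoplasmic reticulum, SCAP escorts the SREBPs to the Golgi, where proteases release the active factor. When sterols are plentiful, INSIG proteins hold SCAP back. INSIG1 and the SREBF genes are themselves targets of the SREBPs, so the messenger RNAs of this pathway commonly move together.

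KHSRP itself stood at 237 ± 19.1 TPM in NTC (SD, n = 3), at 35.1 ± 0.0134 TPM in KHSRPi#1 and at 35.3 ± 1.49 TPM in KHSRPi#2. Each knockdown library held 14.2% to 15.4% of the control mean. The libraries listed 13966 to 14462 symbols above 0, and read depth is unknown because the table holds TPM alone. Of 15 markers of plasmacytoid dendritic cells or BPDCN, 12 had a mean of at least 1 TPM. IL3RA, a defining marker, was listed at 0 in every library, as was SLC25A6 of the same pseudoautosomal region, so nothing is read from that 0. The first principal component of all tested genes held 38.3% of the variance and separated the 3 replicate 3 libraries (12.3 to 14.1) from the other 6 (-8.79 to -3.96).

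The pathway was well expressed in the control cells. The median of the 34 genes over the NTC libraries was 78.02 TPM, beside 20.997 TPM for all tested genes, and 27 of the 34 lay above that second value. In NTC, 12 of the genes exceeded 100 TPM. FDPS, which makes farnesyl diphosphate, was highest at 413 ± 64.5 TPM (SD, n = 3). The stearoyl-CoA desaturase SCD followed at 318 ± 57.0 TPM, and ACLY, which makes cytosolic acetyl-CoA from citrate, had 254 ± 15.6 TPM. Next came the lanosterol demethylase CYP51A1 at 215 ± 27.7 TPM, whose SD overlaps that of ACLY. The lowest was the lathosterol desaturase SC5D at 7.12 ± 1.43 TPM. Of the SREBP genes, SREBF2 had 66.5 ± 6.87 TPM in NTC and SREBF1 had 22.3 ± 4.26 TPM.

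**Figure D1:**
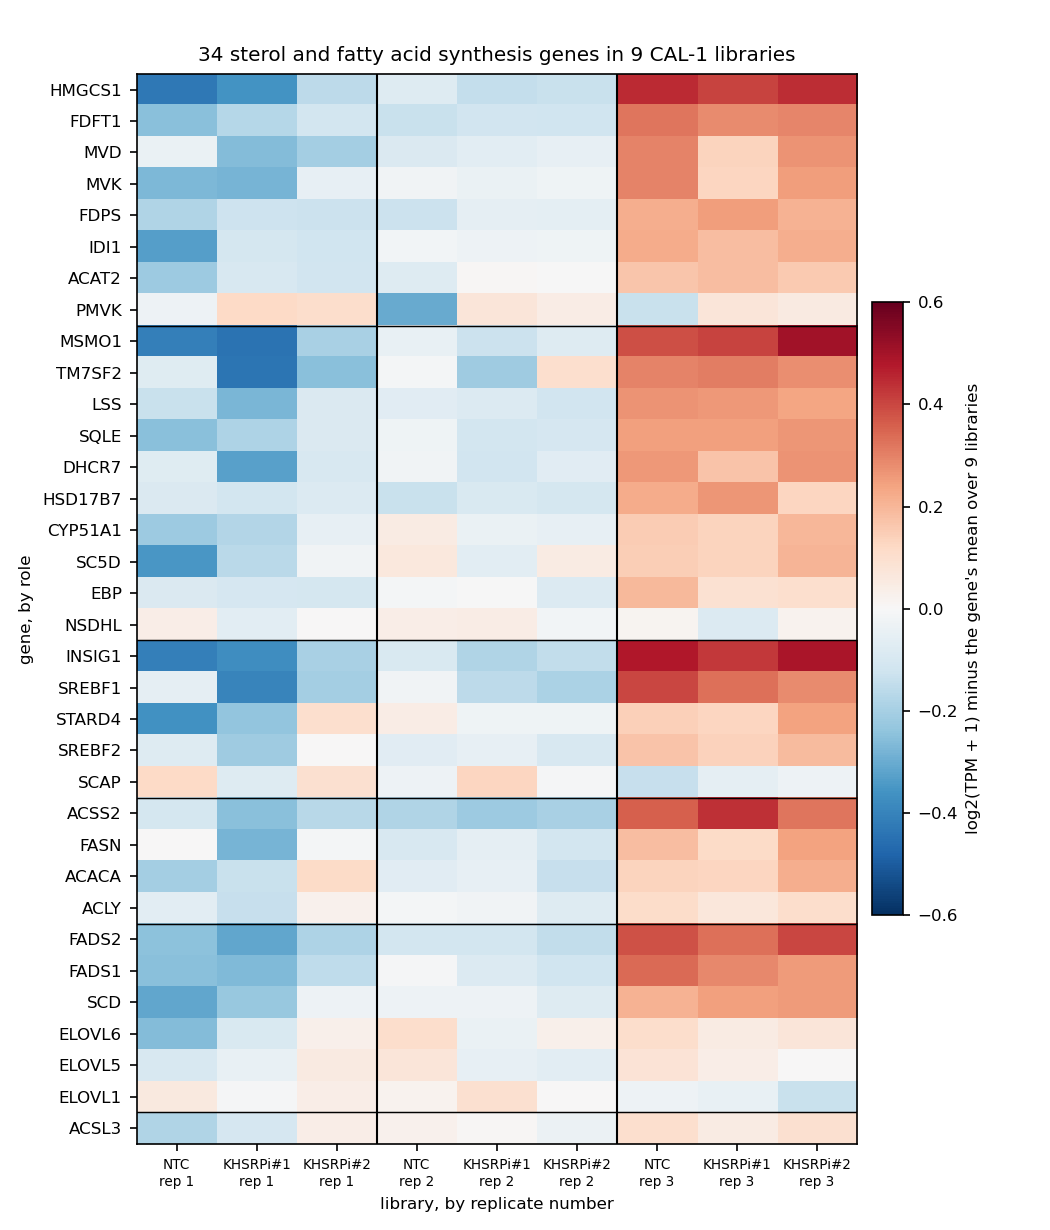
Heat map of the 34 genes (rows, ordered by role) in the 9 libraries (columns, ordered by replicate number), with log2(TPM + 1) minus the gene's mean over the 9 libraries as colour. The 3 columns of replicate 3 are red for most rows, and PMVK, NSDHL, SCAP and ELOVL1 are among the exceptions.

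None of the 34 genes passed the test for KHSRP knockdown. With limma, 0 of 34 were called (Benjamini-Hochberg adjusted p under 0.05 over all tested genes) for the mean of both knockdown groups minus control, beside 0.0823% of all tested genes. For KHSRPi#1 and for KHSRPi#2 alone, limma again called 0 of 34, beside 0.0548% of all tested genes in each. The direct comparison of KHSRPi#2 with KHSRPi#1 gave 0 of 34, where 0% of all genes were called. At an unadjusted p under 0.05 the counts in these 4 comparisons were 1, 1, 1 and 0. Over all 10939 tested genes they were 867, 573, 758 and 115. The 1 gene of the 34 was PMVK each time. The 2 knockdown groups share the NTC libraries, so their differences from control are not independent of each other.

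The summed level of the 34 genes was 3427 ± 505 TPM in NTC (SD, n = 3) and 3447 ± 409 TPM in the knockdown libraries (n = 6). For the mean of both groups, 18 of the 34 log2 differences were positive and 16 negative. Their median was 0.0054, beside 0.02 for all tested genes. KHSRPi#1 minus control had a median of -0.03, with 22 of 34 negative, beside 0.0056 and 5178 negative among all 10939 tested genes. KHSRPi#2 minus control had a median of 0.03, with 22 of 34 positive, beside 0.03 and 6775 positive among all tested genes. For the mean of both groups, the direction of the median of the 34 genes turned with single libraries and with scaling. That median was -0.09 without NTC replicate 1, -0.02 without NTC replicate 2 and 0.11 without NTC replicate 3. It was -0.05 without KHSRPi#1 replicate 3 and -0.04 without KHSRPi#2 replicate 3, and 0.01 to 0.04 without any 1 of the other 4 knockdown libraries. Median-ratio rescaling gave 14 positive and 20 negative differences. These are differences in log2(TPM + 1), a scale that understates the change of low genes.

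The intervals show what size of change these libraries leave room for. The 95% intervals of the 34 differences had a median half-width of 0.26 and ran at most from -0.54 (lower bound, SREBF1) to 0.52 (upper bound, MSMO1). The intervals were narrower with a term for replicate 3 in the model: the median half-width was then 0.11, and the bounds ran from -0.30 (TM7SF2) to 0.35 (PMVK). With this term limma called 0 of 34 genes, beside 1.76% of all tested genes. Beside 1909 of all 10939 tested genes, 2 of the 34 had an unadjusted p under 0.05. The second, beside PMVK, was SREBF1, with a log2 difference of -0.16 (SE 0.06) and an adjusted p of 0.179 in the limma fit with that term. SREBF1 encodes the SREBP that mainly drives fatty acid synthesis.

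PMVK, the kinase that makes mevalonate diphosphate, was the gene nearest to the threshold. It stood at 39.4, 32.4 and 36.6 TPM in NTC replicates 1, 2 and 3, at 43.7, 42.4 and 42.3 TPM in KHSRPi#1 and at 43.3, 41.5 and 41.8 TPM in KHSRPi#2. All 6 knockdown libraries lay above all 3 controls, which was so for 1 of the 34 genes and for 3.1% of all tested genes. The mean log2 difference was 0.23 (SE 0.06) with a limma adjusted p of 0.368, so it did not pass the test. The adjusted p ranged from 0.0416 to 0.639 over the other settings tried, as set out in the closing section. PMVK did not share the replicate 3 pattern described next.

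**Figure D2:**
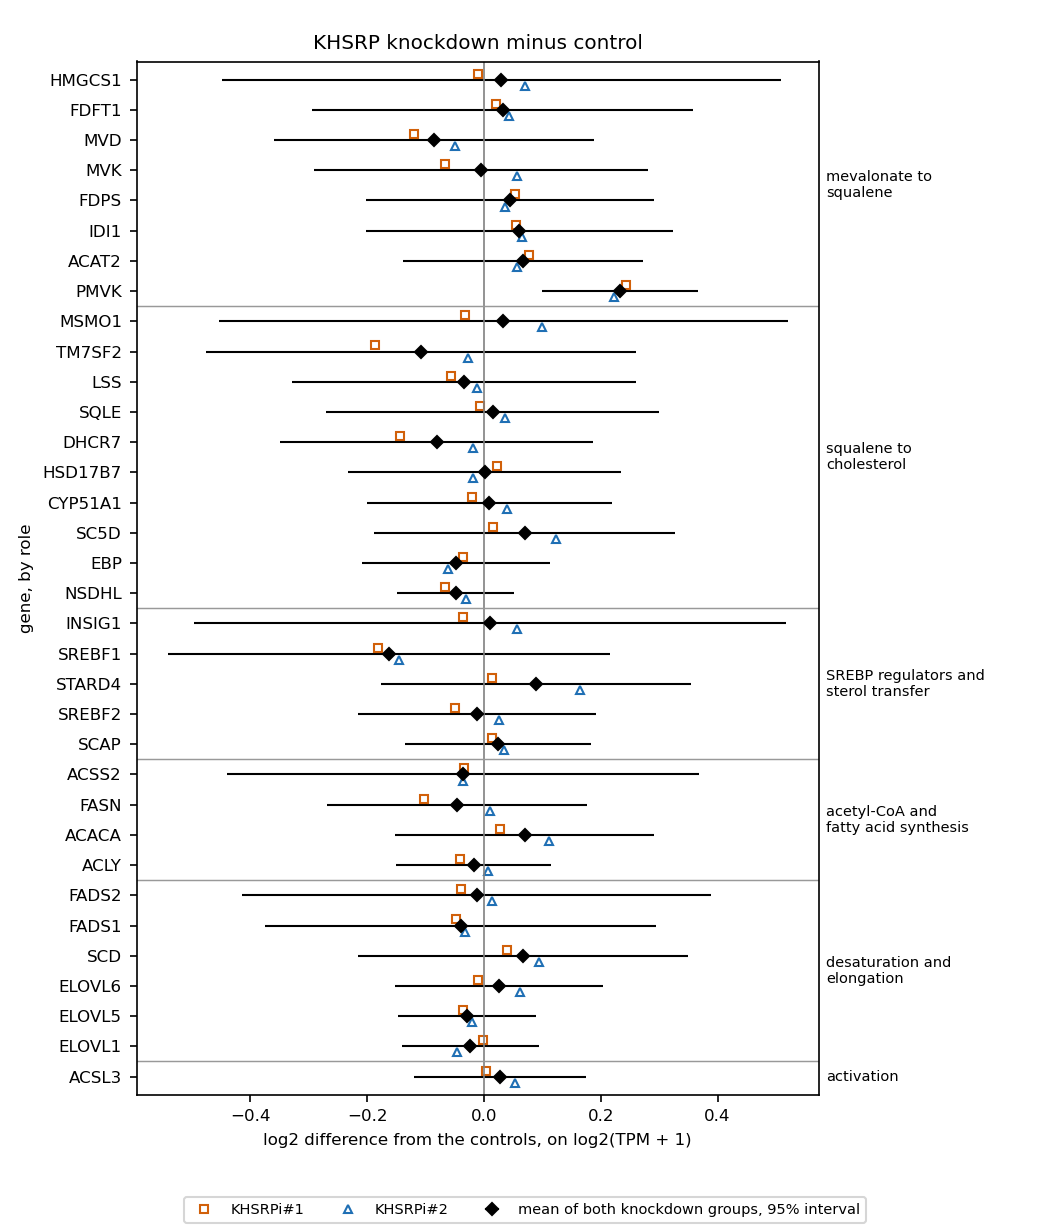
Log2 difference of KHSRP knockdown from control on log2(TPM + 1) for each of the 34 genes, ordered by role, with black diamonds for the mean of both knockdown groups, bars for its 95% interval, and open symbols for KHSRPi#1 and KHSRPi#2. Of the 34 bars, 33 cross 0, and the exception is PMVK at 0.23.

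The libraries numbered 3 stood apart from those numbered 1 and 2 in all 3 groups. The summed level of the 34 genes was 2997 and 3301 TPM in NTC replicates 1 and 2 and 3983 TPM in replicate 3. In KHSRPi#1 it was 2998, 3286 and 3925 TPM, and in KHSRPi#2 3243, 3238 and 3989 TPM, in the same order. The 3 libraries of replicate 3 thus had 3966 ± 35.6 TPM (SD, n = 3) and the other 6 had 3177 ± 141 TPM, with no overlap. By limma with a term for the group, 18.7% of all tested genes were called higher in replicate 3 and 11.6% lower. The same fit called 27 of the 34 genes higher, but since this comparison is taken as having chosen the list, that count is no test of it and nothing is read from it.

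The median log2 difference between replicate 3 and replicates 1 and 2 was 0.31 over the 34 genes and 0.03 over all tested genes. On the TPM scale the ratio of means was above 1.5 for 4 genes, above 1.2 for 21 and below 1 for 4, with a median of 1.24. The 3 libraries of replicate 3 lay above all 6 others for 28 of the 34 genes, beside 16.5% of all tested genes. The smallest positive log2 differences were those of ELOVL5, ELOVL6, ACSL3 and ACLY, from 0.06 to 0.14, and the negative ones were those of PMVK, NSDHL, ELOVL1 and SCAP, from -0.0036 to -0.11.

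In the mevalonate branch, which builds squalene from acetyl-CoA, 8 genes had a median log2 difference of 0.34. HMGCS1, the HMG-CoA synthase, stood at 84.1, 107.5 and 155 TPM in NTC replicates 1, 2 and 3, at 88.3, 103 and 151 TPM in KHSRPi#1 and at 102, 103 and 155 TPM in KHSRPi#2. Its replicate 3 libraries were the 3 highest, and the mean of 153 ± 2.27 TPM (SD, n = 3) compares with 97.9 ± 9.40 TPM in the other 6. The next genes ran from the acetoacetyl-CoA thiolase ACAT2, at 0.25, through the isomerase IDI1, FDPS, the mevalonate kinase MVK and the decarboxylase MVD, at 0.31 to 0.35, to the squalene synthase FDFT1, at 0.45. PMVK, the remaining enzyme, had 40.2 ± 3.17 TPM in replicate 3 and 40.4 ± 4.23 TPM in the others, a log2 difference of -0.0036.

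In the branch from squalene to cholesterol, 10 genes had a median of 0.33. MSMO1, which removes methyl groups from sterols, stood at 63.2, 81.7 and 110.4 TPM in NTC replicates 1, 2 and 3, at 61.7, 76.9 and 112 TPM in KHSRPi#1 and at 73.5, 79.9 and 119.7 TPM in KHSRPi#2. Again the replicate 3 libraries were the 3 highest, at 114 ± 4.99 TPM against 72.8 ± 8.50 TPM. The sterol reductase TM7SF2 differed by 0.44 on the log2 scale. LSS, the lanosterol synthase, SQLE, the squalene epoxidase, and DHCR7, which makes the last reduction to cholesterol, differed by 0.38, 0.38 and 0.35. HSD17B7, CYP51A1, SC5D and the sterol isomerase EBP lay between 0.19 and 0.31.

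NSDHL, the sterol dehydrogenase that works in the same demethylation steps as MSMO1, did not share the pattern. It stood at 49.4, 49.4 and 48.6 TPM in NTC replicates 1, 2 and 3, at 45.9, 49.5 and 45.2 TPM in KHSRPi#1 and at 48.1, 47.4 and 48.7 TPM in KHSRPi#2. Its replicate 3 libraries, at 45.2 to 48.7 TPM, overlap the other 6, at 45.9 to 49.5 TPM, with a log2 difference of -0.02.

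The 5 regulators and sterol carriers had a median of 0.26. INSIG1 had the largest difference of the 34 genes, 0.70 on the log2 scale. Its levels were 109.9, 137 and 205 TPM in NTC replicates 1, 2 and 3, 113 and 129 and 197 TPM in KHSRPi#1, and 128, 132 and 206 TPM in KHSRPi#2. The replicate 3 mean of 203 ± 4.95 TPM was 1.62 times that of the other 6, 125 ± 10.985 TPM. SREBF1 differed by 0.51, with 26.0 ± 1.11 TPM in replicate 3 and 18.1 ± 1.71 TPM in the others, and SREBF2 by 0.25, with 74.1 ± 1.36 and 62.2 ± 3.11 TPM. STARD4, a carrier of cholesterol between membranes, differed by 0.26. SCAP went the other way, from 27.7 ± 1.71 TPM in replicates 1 and 2 to 25.5 ± 1.009 TPM in replicate 3, a log2 difference of -0.11. The SCAP libraries of replicate 3 ranged from 24.4 to 26.3 TPM and the others from 25.5 to 29.5 TPM, so they overlap.

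The 4 genes of acetyl-CoA supply and fatty acid chain synthesis also had a median of 0.26. ACSS2, which makes acetyl-CoA from acetate, stood at 17.9, 16.9 and 24.998 TPM in NTC replicates 1, 2 and 3, at 16.1, 16.4 and 26.5 TPM in KHSRPi#1 and at 17.1, 16.7 and 24.4 TPM in KHSRPi#2. Its replicate 3 libraries lay above all 6 others, at 25.3 ± 1.07 against 16.9 ± 0.612 TPM. The fatty acid synthase FASN differed by 0.27 and the acetyl-CoA carboxylase ACACA by 0.24 on the log2 scale. ACLY had the smallest difference of the 4, 0.14: 240.8, 249 and 271 TPM in NTC, 229, 247 and 264 TPM in KHSRPi#1 and 256, 238 and 270.5 TPM in KHSRPi#2, for replicates 1, 2 and 3.

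Among the 6 genes of desaturation and elongation, the 3 desaturases differed by 0.36 to 0.56 on the log2 scale and the 3 elongases by -0.10 to 0.11. FADS2, the delta-6 desaturase of polyunsaturated fatty acids, stood at 123, 135 and 190.02 TPM in NTC replicates 1, 2 and 3, at 117, 135 and 183 TPM in KHSRPi#1 and at 128, 131 and 193 TPM in KHSRPi#2. Its log2 difference was 0.56, that of the delta-5 desaturase FADS1 0.44 and that of SCD 0.36. ELOVL6, which extends palmitate, and ELOVL5, which extends polyunsaturated chains, differed by 0.11 and 0.06. ELOVL1, which makes very long saturated chains, was lower in replicate 3, at 87.0, 84.7 and 81.7 TPM in NTC, 83.0, 89.2 and 81.0 TPM in KHSRPi#1 and 85.9, 83.7 and 76.1 TPM in KHSRPi#2. It was the 1 gene of the 34 for which all 3 libraries of replicate 3 lay below the other 6. The same was so for 1202 of all 10939 tested genes. ACSL3, which activates fatty acids, stood at 77.0, 89.0 and 93.9 TPM in NTC, at 81.4, 87.9 and 90.5 TPM in KHSRPi#1 and at 90.001, 85.3 and 93.6 TPM in KHSRPi#2.

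**Figure D3:**
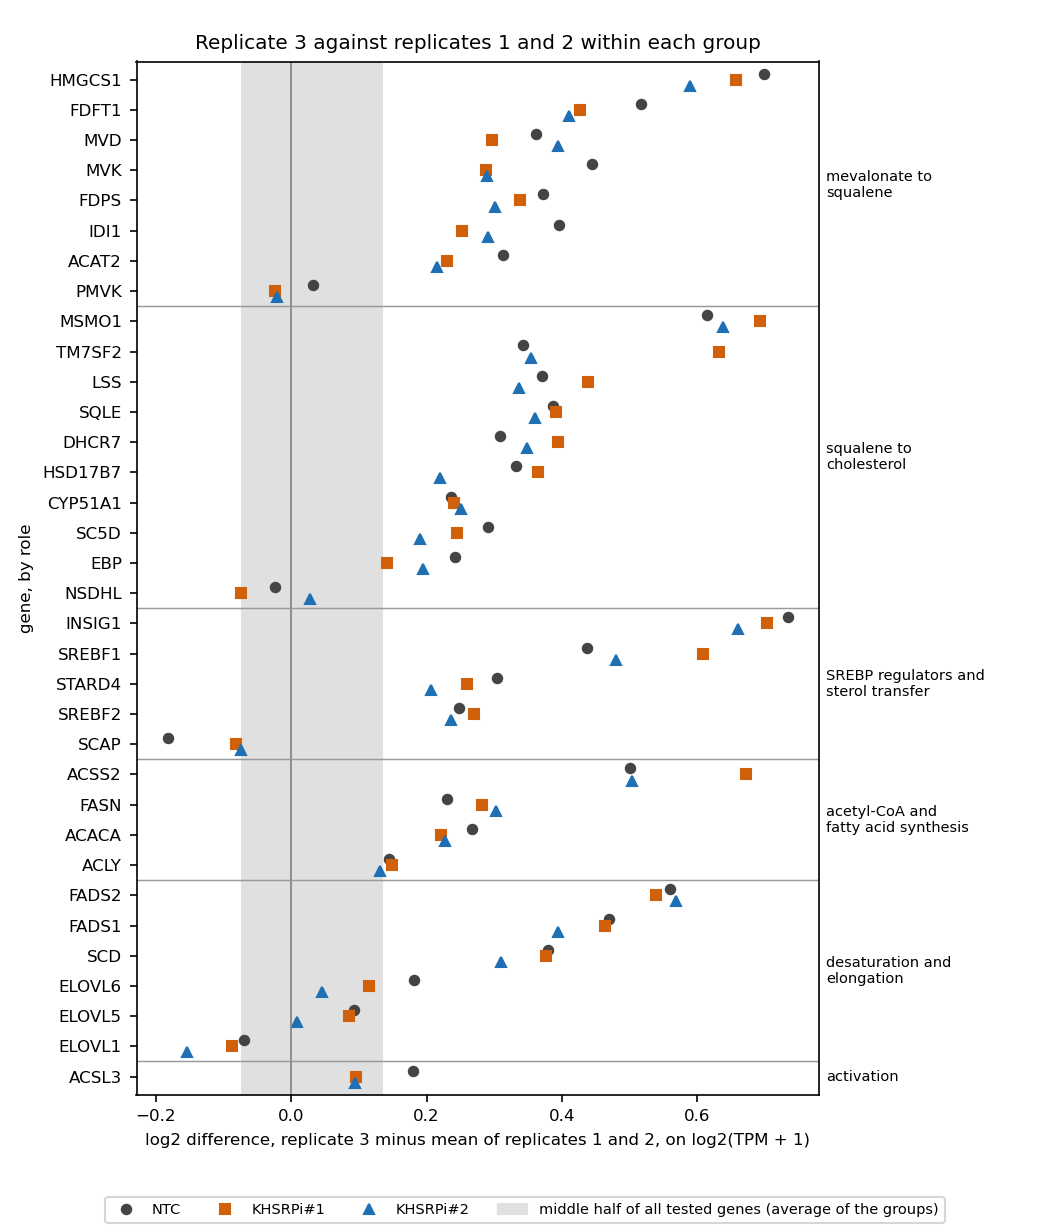
Log2 difference between replicate 3 and the mean of replicates 1 and 2 on log2(TPM + 1) within each group (circles NTC, squares KHSRPi#1, triangles KHSRPi#2) for the 34 genes, ordered by role. The grey band is the interquartile range of all tested genes for the difference averaged over the groups, not for single groups. The symbols of the 3 groups lie close together for most genes, from INSIG1 near 0.70 to SCAP near -0.11.

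The replicate 3 difference was seen in the control and in both knockdown groups. Its median over the 34 genes was 0.32 within NTC, 0.28 within KHSRPi#1 and 0.29 within KHSRPi#2, where all tested genes had medians of 0.02, 0.05 and 0.01. A limma test of the interaction between knockdown and replicate 3 called 0 of 34 genes, beside 0% of all tested genes. At an unadjusted p under 0.05 it gave 0 of the 34 and 238 of all tested genes. The 95% intervals of the interaction ran at most from -0.49 (lower bound, STARD4) to 0.58 (upper bound, TM7SF2), with a median half-width of 0.26. For FDFT1, the gene with the smallest interaction p of the 34, the interval was -0.27 to 0.07.

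In NTC and KHSRPi#1, though not in KHSRPi#2, replicate 2 stood above replicate 1 for most of the 34 genes, as for most tested genes. The medians were smaller than those of the replicate 3 difference. Replicate 2 minus replicate 1 was positive for 26 of the 34 genes in NTC (median 0.13), for 32 in KHSRPi#1 (median 0.13) and for 17 in KHSRPi#2 (median -0.0034). The shares of all tested genes that were positive were 64.3%, 70.3% and 32.4%, with medians of 0.05, 0.05 and -0.06. In NTC replicate 1, INSIG1, HMGCS1, IDI1, SC5D, STARD4 and SCD, named after their values were seen, had their lowest values of the 9 libraries. So did FDPS, CYP51A1, SQLE, ACAT2, FDFT1, ELOVL5, ELOVL6, ACSL3 and ACACA. The remaining genes of the 34 were lowest in other libraries, and the share of all tested genes lowest in NTC replicate 1 was not counted. As a description, the difference between replicates 2 and 1 within a group was set against the mean replicate 3 difference of the other 2 groups, across the 34 genes. Pearson's r was 0.33 for NTC, 0.44 for KHSRPi#1 and 0.43 for KHSRPi#2, and Spearman's rho 0.20, 0.38 and 0.53. Across all tested genes r was -0.03, 0.01 and -0.03. Genes are not independent replicates, and each r compares the same few libraries. The replicate 3 difference is also taken as having chosen the 34 genes, so nothing is read from these correlations.

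Some cell type markers also differed between replicate 3 and the other libraries, in both directions. The 15 plasmacytoid dendritic cell markers summed to 4335 to 4502 TPM in replicate 3 and 3825 to 4364 TPM in the others. Of the 12 that were tested, limma called 3 higher and 7 lower in replicate 3, beside 18.7% and 11.6% of all tested genes. Those higher were CD4, NCAM1 and IRF8, the last at 2791 to 2824 TPM in replicate 3 and 2284 to 2566 TPM in the others. Those lower were CLEC4C, SPIB, IRF7, TLR7, TLR9, NRP1 and GZMB, the granzyme B gene. GZMB had 47.7, 46.8 and 28.98 TPM in NTC replicates 1, 2 and 3. It had 99.4, 98.2 and 56.7 TPM in KHSRPi#1 and 91.8, 99.7 and 55.1 TPM in KHSRPi#2. LYZ, which carried nearly all of the monocyte marker sum, had 36.6 to 41.6 TPM against 59.1 to 90.8 TPM. Of the B cell markers, CD79A was higher, at 1.42 to 1.83 TPM in replicate 3 against 0.535 to 1.29 TPM (log2 difference 0.42, limma adjusted p = 0.0315). The T cell markers summed to at most 0.0743 TPM and the erythroid markers to at most 0.164 TPM in any library, with CD3D, CD8A and HBA1 listed at 0. The part of the marker and library differences in the result for the sterol genes was not tested. In such bulk libraries, fewer cells of a type and less RNA per cell cannot be told apart.

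Other genes of lipid metabolism were taken from 4 further lists, none of which holds any of the 34. Of 20 other genes of sterol synthesis and SREBP processing, limma called 6 higher and 3 lower in replicate 3, with a median log2 difference of 0.03. The site-1 protease MBTPS1, which cuts the SREBPs in the Golgi, was lower, at 127 ± 10.5 TPM in replicate 3 against 151 ± 7.65 TPM in the others (log2 difference -0.25, SE 0.03, limma adjusted p = 0.000288). The mitochondrial thiolase ACAT1 (0.23) and the sterol scaffold gene ERG28 (0.25) were higher, as were GGPS1, CYB5A and STARD5. TMEM97 was lower, at -0.15.

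Of 30 other genes of fatty acid synthesis, 17 were tested, 6 were called higher and 1 lower, with a median of 0.09. CBR4, of the mitochondrial synthesis pathway, and SLC25A1, the citrate carrier, were higher by 0.42 and 0.38, and the acyl-CoA synthetase gene ACSL5 differed by -0.27. Of 23 genes of cholesterol efflux, storage and the liver X receptors (LXR), 14 were tested, 4 were called higher and 0 lower, with a median of 0.08. OSBPL1A, a sterol-binding protein gene, NPC2, which carries cholesterol out of lysosomes, and MYLIP, an LXR target, were higher by 0.43, 0.32 and 0.42. Of 26 genes of fatty acid oxidation, 23 were tested, 10 were called higher and 0 lower, with a median of 0.10. PPARD differed by 0.41, HADH by 0.25 and DECR1 by 0.22. The backgrounds are the 18.7% and 11.6% above. For the efflux and oxidation lists, which had 0 called lower, limma gave 5 and 12 genes in either direction at an unadjusted p under 0.05. Of all 10939 tested genes, 4556 had such a p.

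**Figure D4:**
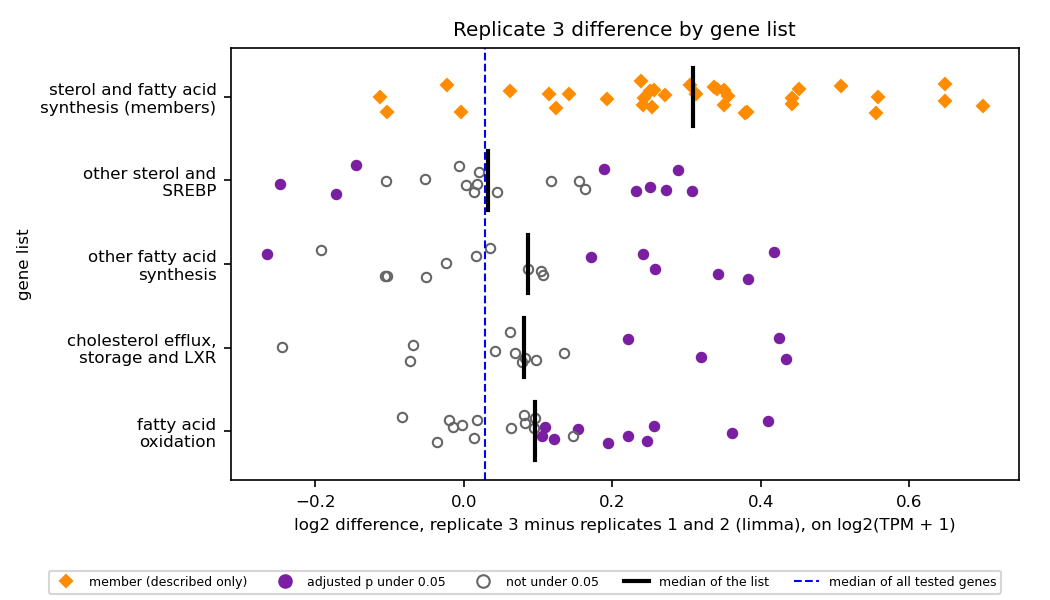
Log2 difference between replicate 3 and replicates 1 and 2 (limma, log2(TPM + 1)) for the 34 genes (diamonds) and 4 further lipid lists (circles, filled where the adjusted p was under 0.05), 1 symbol per tested gene, with a bar at each list's median. The bar of the 34 genes lies at 0.31, those of the other lists between 0.03 and 0.10, and the dashed line of all tested genes at 0.03.

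In the knockdown comparison limma called 0 genes in each of these 4 lists (mean of both groups, adjusted p under 0.05). With the replicate 3 term it called 1 gene higher in the other sterol list, MBTPS1 (log2 difference 0.16, adjusted p = 0.0354 in limma, against 0.691 without the term), and 1 in the other fatty acid list, ME1 (0.26, 0.0495 against 0.394). Without the term, at an unadjusted p under 0.05 the counts were 3 of 20, 2 of 17, 2 of 14 and 3 of 23, in the order above, and 867 of all 10939 tested genes. The medians were 0.02, 0.03, 0.06 and -0.0062. The genes with the smallest p in the 4 lists included ERLIN2, LPIN1 and CYB5R3 with adjusted p of 0.550, 0.594 and 0.5998 in limma. ME1, which supplies NADPH for fatty acid synthesis, had 18.0 ± 2.04 TPM in NTC (SD, n = 3) and 21.6 ± 0.907 TPM in knockdown (n = 6), with a limma adjusted p of 0.394, followed by OXSM at 0.528 and HACD3 at 0.740. NR1H2, which encodes LXR beta, had 37.0 ± 1.10 TPM in NTC and 32.5 ± 1.49 TPM in knockdown, with a limma adjusted p of 0.394, and NR1H3 and LIPA had 0.602 and 0.667. ETFB, CPT2 and SLC25A20 of fatty acid oxidation had 0.550, 0.560 and 0.620.

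SREBPs bind the sterol regulatory element, usually beside sites for NF-Y, which reads the letters CCAAT, and Sp1. RefSeq promoter windows (GRCh38.p14, 250 bases before to 50 after the annotated start) were matched by symbol to 30 of the 34 genes. Of these, 1 held the core TCACNCCAC on either strand, that of SREBF2 (TCACCCCAC at bases -133 to -125 from the start), beside 1.39% of all genes with a window. CCAAT was found on either strand in 24 of 30 (80.0%), beside 39.7% of all genes with a window and 44.1% of the tested genes. The Sp1 letters GGGCGG were in 28 of 30 (93.3%), beside 48.3% and 77.0%. The E-box CACGTG was in 5 of 30 (16.7%), beside 8.77% and 13.3%. Hits of different motifs were counted separately whether or not they overlap. A match is a description of letters, not of binding. Only these exact letters within the windows were searched, so a gene without a match may still have such an element.

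Stretches of these windows that no GENCODE exon covers are printed for the 4 genes with the largest replicate 3 difference that have a window. NSDHL and ELOVL1, which did not share that difference, are printed too. HMGCS1 and ACSS2 have 2 windows each, and only the first listed is printed. For ACSS2 the printed stretch lies inside the annotated gene (chr20:34872146-34927962, plus strand), before an internal start. Each printed stretch reads 5′ to 3′ toward its annotated start, with CCAAT or its reverse complement ATTGG in capitals.
INSIG1, chr7:155297628-155297775, plus strand: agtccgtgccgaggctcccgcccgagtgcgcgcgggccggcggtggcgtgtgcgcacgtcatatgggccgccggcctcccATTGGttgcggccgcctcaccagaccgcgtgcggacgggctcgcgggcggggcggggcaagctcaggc
HMGCS1, chr5:43313513-43313662, minus strand: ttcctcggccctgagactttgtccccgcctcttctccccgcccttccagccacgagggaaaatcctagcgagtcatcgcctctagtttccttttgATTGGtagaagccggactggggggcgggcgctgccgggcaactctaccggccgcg
MSMO1, chr4:165327473-165327622, plus strand: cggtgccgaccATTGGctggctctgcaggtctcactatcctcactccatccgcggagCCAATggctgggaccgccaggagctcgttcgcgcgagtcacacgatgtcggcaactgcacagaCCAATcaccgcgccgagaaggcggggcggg
ACSS2, chr20:34874792-34874941, plus strand: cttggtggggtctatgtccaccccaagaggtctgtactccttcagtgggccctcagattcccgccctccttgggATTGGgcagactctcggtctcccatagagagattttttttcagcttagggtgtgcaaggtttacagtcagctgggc
NSDHL, chrX:152830817-152830966, plus strand: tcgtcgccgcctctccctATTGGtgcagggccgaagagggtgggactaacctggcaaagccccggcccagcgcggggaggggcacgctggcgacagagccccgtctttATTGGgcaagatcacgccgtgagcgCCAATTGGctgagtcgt
ELOVL1, chr1:43368075-43368224, minus strand: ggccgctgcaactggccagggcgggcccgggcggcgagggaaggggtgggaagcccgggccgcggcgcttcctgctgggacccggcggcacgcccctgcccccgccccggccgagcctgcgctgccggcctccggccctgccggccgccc

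Only the first listed window of each gene was counted here. Over that full window, CCAAT was found 1 time for INSIG1, 2 times for HMGCS1, 4 times for MSMO1 and 1 time for ACSS2. It was found 5 times for NSDHL and 1 time for ELOVL1. The printed stretches hold 1, 1, 3, 1, 4 and 0 of these matches, in the same order.

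Some values of the 34 genes carry an uncertainty of counting. By GENCODE 29, 15 of the 34 share exonic sequence with a gene on the opposite strand, among them FADS1 and FADS2 with each other, FDPS with RUSC1-AS1 and HMGCS1 with AC114947.2. Whether counting used strand is not stated in the labels, so reads of such pairs may have been split or joined. On the same strand, FADS2 overlaps exons of FEN1, TM7SF2 those of VPS51, and CYP51A1 those of AC000120.2 and AC000120.3. FADS1 likewise overlaps MIR1908, and ELOVL1 overlaps MIR6734. Use of strand does not separate reads of these same-strand pairs. Named pseudogene copies exist for 5 genes, with 8 for FDPS, 3 for CYP51A1, 2 for HSD17B7 and 1 each for SCD and FADS2. PMVK (chr1:154924734-154936991, minus strand, GRCh38) and INSIG1 (chr7:155297776-155310235, plus strand) have no such overlap on either strand and no such copy.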

How the data were processed

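RNA was measured in 9 CAL-1 libraries, in 3 groups of 3 taken from the sample titles. The table deposited by the authors holds TPM by symbol, reads normalized for transcript length with the same sum in each library. Per the submitters' processing notes, reads were placed on hg38. Aligner version, counting tool, annotation and use of strand are not stated in the sources used here. Read depth is also unknown, so no count test was made and precision comes from replicates alone.

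Values were taken as log2(TPM + 1). Genes with a mean of at least 1 TPM (10939 of 25540) were tested with limma 3.58.1 in R 4.3.3 (trended eBayes, two-sided, all 9 libraries in 1 fit, Benjamini-Hochberg over all tested genes, called under 0.05). The replicate 3 comparison had a group term. The code was tested on simulated data. The members and the further lists were chosen with earlier results of these data known, so lists are described by counts and medians and nothing is supported by their choice. Values in all libraries are given for the genes with the largest and smallest replicate 3 difference in each role, and up to 3 genes of each further list by smallest p. Alternatives were other pseudocounts, filters, scalings and models, and leaving out each library. Promoter windows are RefSeq's and positions GENCODE 29's, both on GRCh38. No pair of libraries held identical values. A few genes of the further lists are not reported here by name.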

Additional observations from a re-analysis of the deposited data

How the results depend on the processing

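For the 34 genes, the count called higher in the mean of both knockdown groups was 0 in every setting but one: with the replicate number as a block it was 1, PMVK, with a limma adjusted p of 0.0416 and the same log2 difference of 0.23. That block raised the calls over all genes from 9 to 152, and the replicate 3 term raised them to 192. The numbers were not taken to pair the libraries, since that needed all 9 same-number correlations of deviations to exceed 0.1 and 8 did, with 0.04 between NTC and KHSRPi#2 replicate 1. Replicate 3 matched its own number in every group (0.62 to 0.63), and NTC replicate 1 was closest to number 2. Under the block no other knockdown call of the 34 genes changed. The median knockdown difference ranged from -0.09 (without NTC replicate 1, 32 of 34 negative) to 0.11 (without NTC replicate 3, 30 positive) when 1 library was left out. It was also negative without NTC replicate 2 (20 of 34 negative), without KHSRPi#1 replicate 3 (24) and without KHSRPi#2 replicate 3 (23). Median-ratio rescaling gave 14 positive and 20 negative, and quantile normalization 16 and 18.

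In the replicate 3 comparison the listed genes are described here by their median log2 difference alone. When 1 library was left out, this median ranged from 0.29 (without NTC replicate 3) to 0.33 (without KHSRPi#2 replicate 3). The number of them called is not given again, since this comparison is taken as having chosen the list. Over all genes this comparison made 3314 calls, and 1802 to 3328 when 1 library was left out. The knockdown comparison made 9 over all genes, 3 to 7 when 1 library was left out and 6 without the filter. No result changed its sign while called.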
